A study of Mus musculus with 11 samples.

Results

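The cytosolic ribosomal protein genes encode the proteins of the ribosome that works in the cytoplasm. Members were taken by symbol: Rpl or Rps with a number, the acidic stalk genes Rplp0, Rplp1 and Rplp2, and Rpsa, leaving out symbols marked as pseudogenes and the S6 kinases. The rule found 89 genes among 56980 gene IDs. Of these, 77 carried the symbol of a canonical ribosomal protein and 12 the symbol of a copy or paralog. The copies Rps3a2, Rps3a3, Rps4l, Rps12l1, Rpl6l and Rpl32l were annotated as pseudogenes, and the other 6 of the 12 were protein coding. A filter on low counts passed 87 members and dropped Rpl3l and Rpl10l.

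RNA was sequenced after ribosomal RNA depletion from primary lung fibroblasts of mice lacking cGAS, the enzyme that senses cytosolic DNA, and of wild-type mice, to find what loss of cGAS changes in the transcriptome. The cGAS KO group held 3 females and 3 males, and the WT group 2 females and 3 males, each library from 1 animal. All groups shared the same culture: DMEM/F12 with 15% fetal bovine serum and an antibiotic-antimycotic, incubated with 5% O2 and 5% CO2 at 37 °C. The sources used here do not give strain, age, passage or the design of the KO allele, and the extraction text in the labels speaks of pulverized tissue rather than cultured cells.

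Each ribosome holds a large and a small subunit, and their proteins are needed in matched amounts, so the genes are usually expressed together at high and similar levels. Many of their messages begin with a C followed by a run of pyrimidines, the 5′ terminal oligopyrimidine (TOP) motif, through which the kinase mTOR and the RNA-binding protein Larp1 control their translation. Fibroblasts that proliferate and secrete matrix depend on high protein synthesis.

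The start sites below are shown because they hold the shared sequence feature of the family, which the symbol rule did not use. Each is 30 bases of RefSeq sequence (build GRCm38.p6), with 10 bases before the annotated start and 20 from it on. Capitals mark the longest run of C and T that touches the 5 bases on either side of the start.
Rpl15: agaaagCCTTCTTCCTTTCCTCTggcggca
Rpl35: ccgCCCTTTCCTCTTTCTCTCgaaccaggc
Rps6: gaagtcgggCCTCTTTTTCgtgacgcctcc
Rps27: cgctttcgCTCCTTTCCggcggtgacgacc
Rplp2: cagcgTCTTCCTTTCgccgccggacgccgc
Rplp0: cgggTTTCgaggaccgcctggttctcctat
Rpsa: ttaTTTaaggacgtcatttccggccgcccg
Rpl22: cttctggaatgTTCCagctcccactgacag
Rpl22l1: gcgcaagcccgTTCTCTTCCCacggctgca
The first 5 begin with C and at least 4 further pyrimidines, and the last 4 do not at these annotated starts. The windows lie at chr14:18270967-18270996 (minus strand) for Rpl15, chr2:39005112-39005141 (minus) for Rpl35, chr4:86857348-86857377 (minus) for Rps6, chr3:90213629-90213658 (minus) for Rps27 and chr7:141447641-141447670 (plus) for Rplp2. They lie at chr5:115559457-115559486 (plus) for Rplp0, chr9:120127756-120127785 (plus) for Rpsa, chr4:152324426-152324455 (plus) for Rpl22 and chr3:28805498-28805527 (plus) for Rpl22l1. Each covers the start of the first exon and its 5′ flank.

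Promoter sequence was matched for 64 of the 89 members. A C at the annotated start followed by at least 4 pyrimidines (C or T, read on the gene's strand) was found in 14 of these 64 (21.9%), against 3.01% of 27025 genes in the same table. A pyrimidine run of at least 8 bases near the start was found in 25 of 64 (39.1%), against 11.4%. A run a few bases from the annotated start counts only for the second measure, as in Rpl22l1, so the first depends on how exactly starts are annotated. The canonical members with a long run (22) and those without (35) had a median log2 difference between KO and WT of -0.11 and -0.10.

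Total counts ran from 27261958 to 48039328 per library, so that 3 counts, the limit a count of 0 allows for counting error, correspond to 0.0610 to 0.112 CPM (counts scaled to the library's size, here with TMM, a factor that evens out library composition). The lowest count of any canonical member in any library was 2395. Cgas, the targeted gene, ranged from 1.61 to 2.26 CPM across KO and from 5.87 to 9.94 CPM across WT animals, with no overlap. Its log2 difference of -1.99 ± 0.16 (SE) was the only one past the threshold over both sexes, an adjusted p of 0.05 in edgeR's quasi-likelihood test (adjusted p = 9.54e-04). Fibroblast markers summed to 37460 to 55290 CPM. Leukocyte markers summed to 8827 to 14880 CPM in KO and 6194 to 9401 in WT libraries. Of 17 tested, 15 were positive over both sexes, with none past the threshold in edgeR (4 past it in males). Over both sexes DESeq2 called 1 of the 17, among 2.29% of entries, and limma-voom 10, among 13.6%, all higher in KO. Markers of epithelium were scarce, at 10.7 to 37.2 CPM in sum in KO and 22.4 to 55.2 in WT libraries, and negative in 7 of 7 tested over both sexes (median log2 difference -0.89, none past the threshold in edgeR, 5 called by limma-voom among 13.6% of entries) and in 7 of 7 in males (1 past it in edgeR). Markers of endothelium summed to 55.5 to 107.1 CPM in KO and 40.56 to 90.02 CPM in WT libraries. The mean sum was higher in KO (86.23 against 67.45 CPM), with overlapping ranges. By gene, the log2 differences were negative in 6 of 9 over both sexes and in 7 of 9 in males. Their median was -1.92 in males and 0.32 in females. None passed the edgeR threshold over both sexes, and the 1 past it in males was higher in KO. At an unadjusted edgeR p under 0.05, 6 were lower and 2 higher in males, and 2 were higher and none lower over both sexes. WT female 2 stood apart: repeats took 10.2% of its counts against 5.31 to 8.10% elsewhere, and proliferation markers summed to 370 CPM against 699 to 1596. Transcripts encoded in the mitochondrial genome summed to 13480 CPM there against 7083 to 10330 elsewhere. They were negative in 13 of 13 between KO and WT over both sexes (median log2 difference -0.21, none past the threshold in edgeR) and in 13 of 13 between males and females (3 past it). Between KO and WT they were negative in 11 with a median of -0.10 without WT male 1. Without both WT female 2 and WT male 1 they were negative in 12 with a median of -0.06. WT male 1 held the highest of these proliferation sums. The part of these differences in the results was not tested, and several of the results that rest on the 2 libraries are also given without them.

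The members took 2.69 to 3.64% of all counts. Their summed level was 28700, 29520 and 31770 CPM in KO females and 32390 and 38080 CPM in WT females. It was 28110, 27650 and 29170 CPM in KO males and 29700, 28340 and 26830 CPM in WT males. Both WT females lay above every other library, and the males of the genotypes overlapped. The mean was 29150 ± 1454 CPM (SD, n = 6) in KO and 31070 ± 4422 CPM (SD, n = 5) in WT libraries, a gap smaller than the WT spread.

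**Figure D1:**
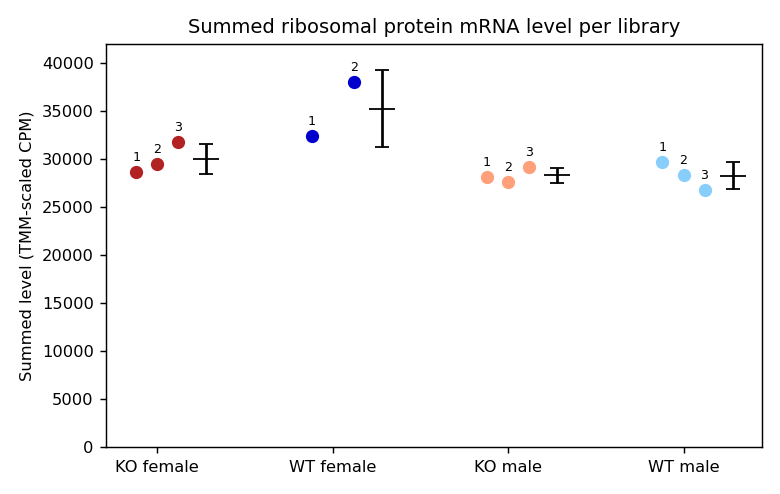
Summed TMM-scaled CPM of the 89 members in each library by genotype and sex, with replicate numbers over the points and the group mean ± SD as a bar beside them. WT female 2 is highest at 38080 CPM, and the male groups overlap.

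The canonical members had mean levels from 81.8 to 1166 CPM, with 75 of 77 at 100 CPM or more. Per kilobase of coding length, their median level was 692 CPM per kilobase. Reads also come from the untranslated parts, so this scale favours genes with short coding sequences and compares genes only roughly. Rpl41, which encodes the smallest ribosomal protein, was highest at 5446 CPM per kilobase; its coding sequence has only 75 bases, so the untranslated parts of the message weigh most there. Rplp1, an acidic protein of the stalk that recruits translation factors, reached 2215, Rps29 of the small subunit 2139 and Rpl39 at the exit tunnel 2086 CPM per kilobase. Rpl22 and Rpl19 were lowest at 213 and 215 CPM per kilobase. The large-subunit members summed to 1.29 to 1.36 times the small-subunit members in every library, with overlapping ranges in KO (1.31 to 1.34) and WT.

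No member passed the threshold between KO and WT over both sexes, where 0.00436% of the 22960 entries tested did. At an unadjusted edgeR p under 0.05, Rpl18 and Rpl13a were lower in KO and none was higher, against 7.05% of all entries lower. DESeq2 and limma-voom also called no member over both sexes, where they called 2.29% and 13.6% of entries. The log2 difference was negative for 86 of 87 members, with 52.9% of all entries negative, and its median was -0.11 against -0.02 for all entries. Members are expressed together, so these are not 86 separate observations. Every KO library lay below every WT library for 0 members, against 0.405% of entries. Without WT female 2 the count of negative members was 71 and the median -0.03, and without both WT female 2 and WT male 1, chosen after seeing the data, they were 56 and -0.01.

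Rpl18, a large-subunit protein, stood at 369, 370 and 411 CPM in KO females, 333, 338 and 367 in KO males, 427 and 492 in WT females, and 403, 364 and 349 in WT males. The WT females were highest, and the KO and WT ranges overlapped. Its log2 difference was -0.17 ± 0.08 (SE; edgeR adjusted p = 0.281). Rpl13a, a large-subunit protein also known for a role in silencing inflammatory messages, stood at 266, 266 and 281 CPM in KO females, 248, 244 and 263 in KO males, 312 and 350 in WT females, and 279, 261 and 248 in WT males. Again both WT females were above every KO library, and the WT males overlapped with the KO libraries. Its log2 difference was -0.16 ± 0.07 (SE; edgeR adjusted p = 0.280).

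Rps6, the small-subunit protein phosphorylated by the S6 kinases and a carrier of the pyrimidine run shown above, stood at 438, 438 and 477 CPM in KO females and 405, 404 and 418 in KO males. It stood at 492 and 622 CPM in WT females and 441, 417 and 415 in WT males. The WT females lay above all other libraries, and its log2 difference was -0.17 ± 0.08 (SE; edgeR adjusted p = 0.329). Rpl9 and Rpl8 of the large subunit had log2 differences of -0.18 and -0.16, and Rpsa, the small-subunit protein related to the laminin receptor, one of -0.15. Rps29 was the only member with a positive value, 0.03 ± 0.09 (SE; edgeR adjusted p = 0.880).

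Rps2, a small-subunit protein at the entry of the messenger RNA channel, did not follow the family pattern. It stood at 1146, 1083 and 1204 CPM in KO females, 1050, 1061 and 1134 in KO males, 1270 and 1160 in WT females, and 1383, 1171 and 1107 in WT males. WT male 1 was highest, WT female 2 lay within the KO range, and the genotypes overlapped (log2 difference -0.13 ± 0.08 SE; edgeR adjusted p = 0.418). Rps27, which carries the pyrimidine run shown above, stood at 219, 241 and 238 CPM in KO females, 211, 195 and 219 in KO males, 244 and 357 in WT females, and 196, 198 and 193 in WT males. Only WT female 2 lay far from the rest, and the log2 difference was -0.11 ± 0.11 (SE; edgeR adjusted p = 0.632). Rps27a, made as a fusion with ubiquitin, had a log2 difference of -0.14 ± 0.11 (SE), and Rpl3 and Rpl4, which reach towards the peptidyl transferase centre and the exit tunnel, had values of -0.09 and -0.15. By role, the 8 members lining the exit tunnel or its mouth were negative in 8 of 8 with a median of -0.11, and the 16 members whose human counterparts are linked to Diamond-Blackfan anaemia, an inherited failure of red cell production, in 15 of 16 with a median of -0.11.

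In females alone no member passed the threshold, where 0.00436% of entries did. All 77 canonical members had negative log2 differences, from -0.40 to -0.09. Of the 87 tested members 84 were negative, against 48.5% of entries, with a median of -0.25. At an unadjusted edgeR p under 0.05, 34 of 87 were lower, against 4.70% of all entries. That count was 3 without KO female 1 (643 of 22767 entries lower) and 4 without KO female 2 (588 of 22683). Without KO female 3 the count was 39 (874 of 22909), and with limma-voom it was 4 (264 of 22960). Every KO female lay below every WT female for 45 of 87 members, against 9.81% of all entries. Without WT female 2 the median was -0.10 and no member had an unadjusted p under 0.05. With WT female 2 as the only WT female, 38 members passed the threshold in edgeR, 37 of them lower in KO, among 15.4% of entries; the lone library is then assumed to vary like the other groups.

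In males no member passed the threshold either, where 2.00% of entries did. Positive values numbered 50 of 87, against 47.9% of entries, and the median was 0.01. It became slightly negative with other scalings: the median was -0.0015 with DESeq2's size factors in edgeR and -0.02 with total counts. Without WT male 1 the median was 0.05, with 67 members positive (11663 of 22882 entries). Without WT female 2 it was -0.01, with 35 positive (10671 of 23839 entries). Without both libraries it was 0.03, with 59 positive (11352 of 23733 entries). Every KO male lay below every WT male for 0 members (13.2% of entries) and above for 8 (17.7%). Among the 8 was Rps29, at 374, 348 and 355 CPM in KO males and 335, 325 and 291 in WT males (log2 difference 0.18 ± 0.09 SE; edgeR adjusted p = 0.298).

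**Figure D2:**
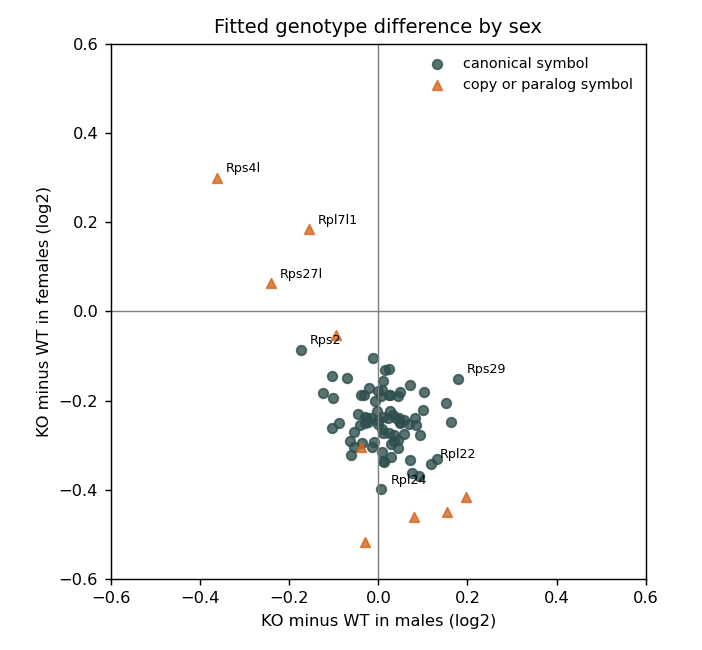
Fitted log2 difference between KO and WT in males (horizontal) and females (vertical) for tested members, circles canonical and triangles copies or paralogs, with Rpl39l outside the range. The canonical members lie below 0 in females and on both sides of 0 in males, while Rps4l, Rpl7l1 and Rps27l lie above 0 in females.

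The difference between the sexes was tested as an interaction, and no member and no entry (0%) passed the threshold in edgeR. At an unadjusted p under 0.05, 14 of 87 members had a higher log2 difference in males, against 7.73% of all entries. That count was 2 without KO female 1 (1102 of 22767 entries) and 3 with total counts (1276 of 22960). Without KO female 3 the count was 16 (1571 of 22909). The interaction was positive for 82 of 87 members, against 48.7% of entries, with a median of 0.26. Without WT female 2 the median was 0.09, and 1 member had an unadjusted p under 0.05. Without WT female 1, which leaves WT female 2 as the only WT female, 13 members passed the threshold among 10.1% of entries. Rpl37a, a zinc-finger protein of the large subunit, stood at 322, 324 and 340 CPM in KO females against 349 and 431 in WT females. In males it stood at 318, 318 and 340 CPM in KO against 302, 292 and 279 in WT. The genotypes did not overlap in either sex and lay in opposite order, with an interaction of 0.41 ± 0.14 (SE; edgeR adjusted p = 0.306). Rps14 of the small subunit had an interaction of 0.37 ± 0.14 (SE; edgeR adjusted p = 0.317).

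Between males and females 1 member passed the threshold, lower in males, where 3.89% of entries passed it. It was Rplp0, the anchor of the acidic stalk and a widely used reference gene. Rplp0 stood at 1221, 1222 and 1292 CPM in KO females, 1341 and 1336 in WT females, 1050, 1071 and 1071 in KO males, and 1077, 1049 and 1092 in WT males. Every male lay below every female, and the log2 difference was -0.27 ± 0.07 (SE; edgeR adjusted p = 0.0488). The call was lost in edgeR with DESeq2's size factors (adjusted p = 0.0503) and with total counts (adjusted p = 0.0639), and held in DESeq2 (adjusted p = 3.06e-08). It was also lost without any 1 of 9 libraries, with adjusted p from 0.0592 to 0.120; it held without WT female 1, where 6 members passed among 13.8% of entries, and without WT male 3.

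All 77 canonical members had negative log2 differences between males and females, from -0.37 to -0.03, and so had 81 of the 87 tested members, against 50.6% of entries. At an unadjusted edgeR p under 0.05, 47 of 87 members were lower, against 14.2% of entries, and every male lay below every female for 15 (2.35% of entries). The count of 47 was 29 without WT female 2 (2636 of 23839 entries lower) and 29 without KO female 3 (2742 of 22909). It was 30 without WT male 2 (2692 of 22726) and 30 without WT male 3 (3331 of 22875). Without KO female 1 it was 55 (2997 of 22767), and with genes only it was 56 (2719 of 21831). DESeq2 called 17 members, all lower in males, among 12.2% of entries, and limma-voom 20, all lower, among 25.7%. The sexes also differed in the style of their file names, so sex and a difference in handling cannot be told apart. Proliferation markers were higher in males for 15 of 15 tested, 2 past the threshold, and their part in the result was not tested.

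The X-linked members lay within the range of the other canonical members. Rps4x of the small subunit, Rpl10 at the subunit interface, Rpl36a and Rpl39 had log2 differences between males and females of -0.19, -0.23, -0.18 and -0.30, none past the threshold in edgeR. DESeq2 called Rps4x (adjusted p = 0.0311) and Rpl39 (adjusted p = 0.0132), among 12.2% of entries. limma-voom called Rpl39 (adjusted p = 0.0146), among 25.7%. The acidic stalk partners of Rplp0 had values of -0.07 for Rplp1 and -0.21 for Rplp2. Rpl5 and Rpl11, which with 5S ribosomal RNA bind Mdm2 when ribosome assembly fails, had values of -0.25 and -0.19. Between KO and WT over both sexes the same pair had log2 differences of -0.14 and -0.13.

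The canonical members moved together from library to library. The median SD of their log2 level over the 11 libraries was 0.16 and became 0.06 once each library's median deviation was subtracted. That median deviation was 0.38 in WT female 2, 0.11 in WT female 1 and 0.09 in KO female 3, and -0.18 to -0.01 in the other 8. WT female 2 was the highest library for 77 of 87 members, against 26.4% of entries. Some members departed from the common shift there: relative to the canonical median, Rpl24, Rps27 and Rpl22 were 0.34, 0.28 and 0.24 log2 units higher, and Rps2 and Rplp1 were 0.38 and 0.26 units lower (values -0.38 and -0.26).

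**Figure D3:**
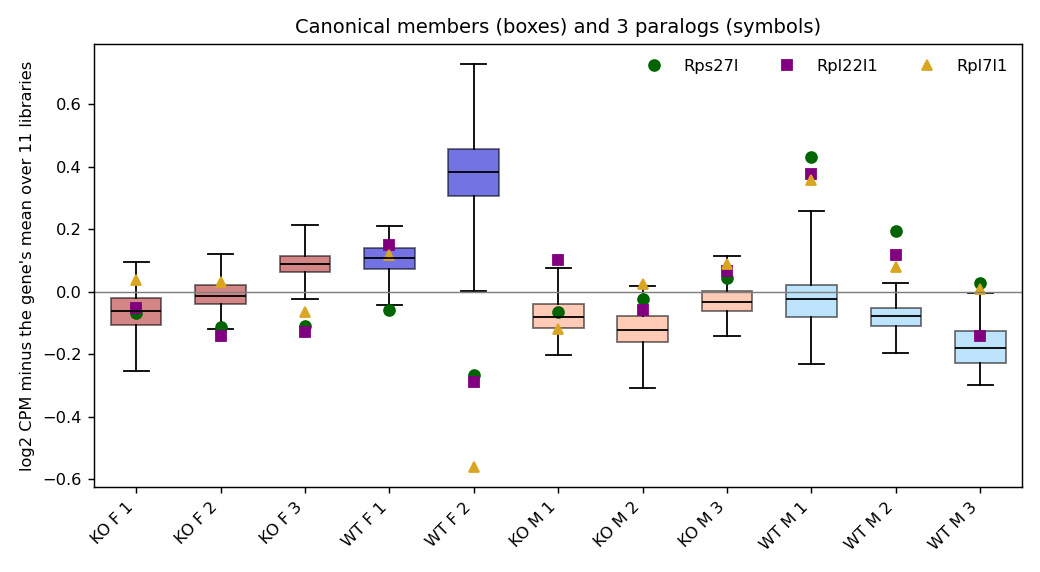
Log2 level of each member minus its mean over the 11 libraries. Boxes give the median and quartiles of the 77 canonical members with whiskers to the extremes, and symbols give 3 protein-coding paralogs. The boxes are highest in WT female 2, where the paralogs are lowest, and the paralogs are highest in WT male 1.

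The protein-coding paralogs Rps27l, Rpl22l1 and Rpl7l1 followed another pattern. Rpl39l, with a median of 6 counts, was too scarce to be placed with them. Rps27l, a p53-responsive relative of Rps27, stood at 62.5, 60.6 and 60.7 CPM in KO females, 62.9 and 54.4 in WT females, 62.6, 64.4 and 67.4 in KO males, and 88.2, 74.9 and 66.8 in WT males. WT male 1 was highest and WT female 2 lowest. Rps27l had a log2 difference of -0.24 ± 0.11 in males (SE; edgeR adjusted p = 0.216), which limma-voom called among 20% of entries (log2 -0.21, adjusted p = 0.0426), and 0.06 ± 0.12 in females. At an unadjusted edgeR p under 0.05 it was the 1 of 10 tested copies or paralogs lower in males (2259 of 22960 entries lower). Without WT male 1 that count was 0 (1902 of 22882 entries). Rpl22l1, the paralog that can replace Rpl22, stood at 27.0 to 28.7 CPM in KO females, 33.0 and 24.4 in WT females, 28.6 to 32.0 in KO males, and 38.7, 32.3 and 27.0 in WT males. Rpl7l1, a relative of Rpl7 that takes part in ribosome assembly, stood at 34.3 CPM in WT female 2, 64.7 in WT male 1 and 46.5 to 54.9 in the other libraries.

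Relative to the canonical median, Rps27l, Rpl7l1 and Rpl22l1 were at -0.65, -0.94 and -0.67 log2 units in WT female 2 and at 0.45, 0.38 and 0.40 in WT male 1. The KO libraries lay between these extremes. Rps27l did not reach the threshold over both sexes (log2 -0.11 ± 0.09 SE; edgeR adjusted p = 0.562), nor did Rpl22l1 (-0.08 ± 0.10 SE; edgeR adjusted p = 0.741).

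The ratio of a paralog to its parent within a library does not depend on scaling. The ratio of Rpl22l1 to Rpl22 counts was 0.373, 0.317 and 0.304 in KO females, 0.372 and 0.197 in WT females, 0.404, 0.421 and 0.393 in KO males, and 0.564, 0.455 and 0.392 in WT males. The ratio of Rps27l to Rps27 was 0.285, 0.251 and 0.256 in KO females, 0.258 and 0.153 in WT females, 0.297, 0.331 and 0.308 in KO males, and 0.450, 0.379 and 0.346 in WT males. In both ratios the WT libraries spanned the whole KO range. The log2 difference between KO and WT was 0.05 (p = 0.86) for Rpl22l1 and 0.04 (p = 0.895) for Rps27l in a two-sided exact permutation test within sex over 200 arrangements, which can give no p below 0.005. Adjusted over the 2 ratios tested, both p-values of this exact test were 0.895.

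Within the sexes the differences had opposite signs. In males the log2 difference between KO and WT was -0.32 for the Rps27l to Rps27 ratio, with every WT male above every KO male, and -0.20 for the Rpl22l1 to Rpl22 ratio. With 3 against 3 the two-sided exact permutation p was 0.1 for Rps27l, the smallest this design allows, and 0.4 for Rpl22l1. In females, where 0.1 is also the smallest p, the log2 difference was 0.41 for Rps27l (exact permutation p = 0.3) and 0.29 for Rpl22l1 (exact permutation p = 0.6). The ratio of Rpl39l to Rpl39 was not tested, since Rpl39l, a paralog known from testis, had a median of 6 counts.

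**Figure D4:**
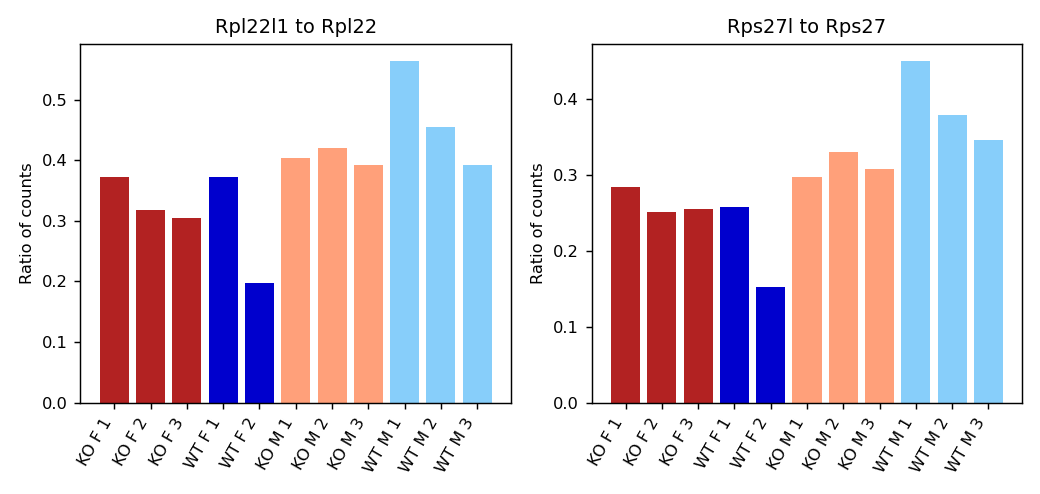
Ratio of counts of each paralog to its parent in each library, with bars coloured by genotype and sex. For both pairs WT female 2 is lowest (0.197 and 0.153) and WT male 1 highest (0.564 and 0.450), with the KO libraries between them.

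The other copies were scarce. Rps4l stood at 4.98 to 17.2 CPM with its highest value in WT male 1, Rps3a3 at 8.18 to 13.4, Rpl6l at 6.42 to 13.5, Rps3a2 at 5.62 to 9.56, Rpl32l at 2.53 to 4.27 and Rps12l1 at 0.112 to 0.328 CPM. Rps3a3, Rpl6l, Rps3a2 and Rpl32l were highest in WT female 2, like the canonical genes. Rpl10l, known from testis, had 0 counts in every library, which allows up to the limits given above, and Rpl3l, known from muscle, stood at 0.0485 to 0.112 CPM. Reads of processed copies and of their parents can be near identical, so the pseudogene-type copies are uncertain. A further 300 entries were annotated as ribosomal protein pseudogenes by symbol. They summed to 495 to 751 CPM, or 1.72 to 2.10% of the members' sum, highest in WT female 2.

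Genes around the ribosome were read from lists. Of 37 tested translation factors none passed the threshold over both sexes and 34 were negative, with a median log2 difference of -0.10. Of 54 ribosome biogenesis genes none passed and 48 were negative, with a median of -0.19. In males 49 of the 54 were negative with a median of -0.33, and in females 25 of 54 with a median of 0.01; the median of their interactions was -0.29 and none passed the threshold. Their sum was 2685 CPM in WT male 1 and 1649 to 1978 CPM elsewhere. Over both sexes the count of negative biogenesis genes was 39 with a median of -0.07 without WT male 1, 51 with a median of -0.29 without WT female 2, and 45 with a median of -0.16 without both. In males that count was 40 with a median of -0.15 without WT male 1. It was 50 with a median of -0.36 without WT female 2, and 43 with a median of -0.17 without both. DESeq2 called 0 biogenesis genes and 0 translation factors over both sexes, among 2.29% of entries. limma-voom called 14 of 54 and 3 of 37, all lower in KO, among 13.6% of entries. The mitochondrial ribosomal proteins, which build a separate ribosome, were negative in 40 of 78 over both sexes with a median of -0.001. They were negative in 55 of 78 with a median of -0.06 without WT female 2, and in 27 with a median of 0.03 without WT male 1. In the list of mTOR and TOP control genes 18 of 28 were positive over both sexes with a median of 0.05, and none passed in edgeR. DESeq2 called 1 of these 28 and limma-voom 3, all higher in KO, among 2.29% and 13.6% of entries. In males 14 of the 28 were positive, and the 2 past the edgeR threshold were higher in KO, among 2.00% of entries.

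The snoRNA host genes, several of which are known to share the TOP feature with the members, carry in their introns the small RNAs that guide ribosomal RNA modification, and were negative in 11 of 11 over both sexes. Their median log2 difference was -0.48, and none passed the threshold in edgeR. At an unadjusted edgeR p under 0.05, 10 were lower, against 7.05% of all entries. That count was 8 without WT female 2 (2149 of 23839 entries), 8 without WT male 1 (1412 of 22882) and 7 without both (1582 of 23733). DESeq2 called 5 of the 11, among 2.29% of entries, and limma-voom 7, among 13.6%, all lower in KO. The summed level was 104, 103 and 118 CPM in KO females and 103, 93.1 and 119 in KO males. It was 124 and 190 CPM in WT females and 145, 133 and 127 in WT males, so every KO library lay below every WT library in this sum. The lowest p-values were those of Snhg15, Snhg17 and Snhg1, with log2 differences of -0.81, -0.66 and -0.53 and an edgeR adjusted p of 0.186 each. Without WT female 2 and WT male 1 the 11 stayed negative with a median of -0.28.

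**Figure D5:**
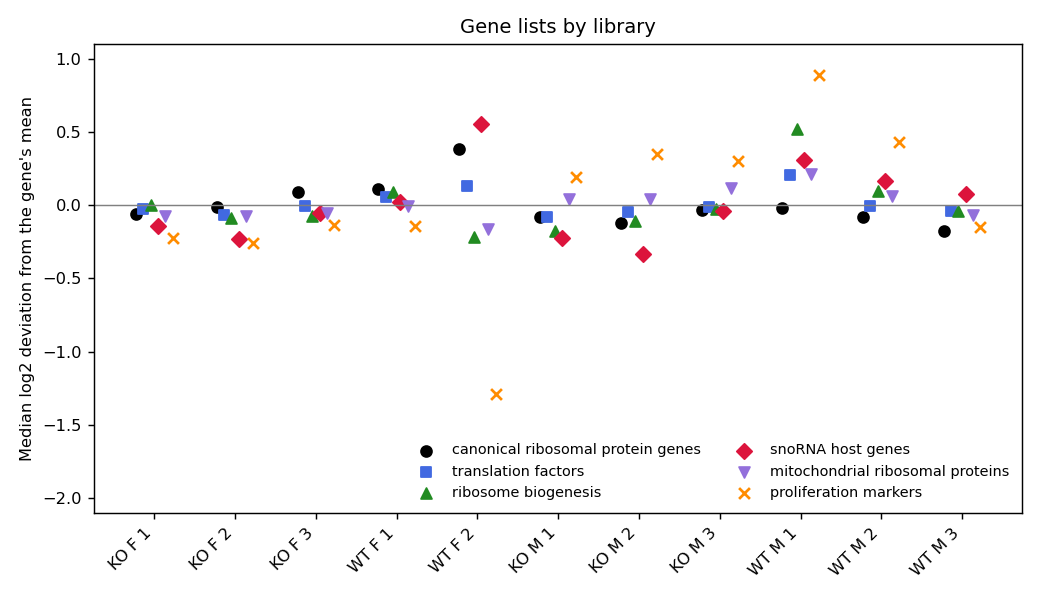
Median log2 deviation of each gene list from the genes' means in each library, with symbols as in the key. The snoRNA host genes lie above 0 in all 5 WT libraries and below 0 in all 6 KO libraries, whereas the canonical ribosomal protein genes stand out in WT female 2 at 0.38 and the proliferation markers are lowest there.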

How the data were processed

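Each library was deposited as 1 table of raw counts per gene and repeat subfamily (58223 entries); the authors applied no normalization to these counts, judged from their whole-number values. The submitters' processing notes name Trim Galore, STAR and the build GRCm39, without versions. How reads were assigned to genes (program, strand, multi-mapping, annotation) is not given in the sources used here, so overlapping genes and near-identical copies are uncertain. GENCODE vM21 names matched 52073 of 56980 gene IDs, leaving 4907 without a symbol; RefSeq promoter sequence is of GRCm38.p6, and no coordinates were moved between builds.

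Samples were grouped by genotype and sex from their titles. Differences were fitted over all entries with edgeR 4.0.16 (R 4.3.3; TMM, filterByExpr with a minimum count of 10, quasi-likelihood F-test), by a model of sex plus genotype (8 residual df) or of group means (7), and Benjamini-Hochberg adjustment over 22960 entries. DESeq2 1.42.0 and limma 3.58.1 (voom with sample quality weights) were alternatives, beside other scalings, no filter, genes only, no sex term, a replicate block and leaving out each library. The code was tested on simulated data. The SE given with an edgeR difference was derived from its test, as the absolute log2 difference divided by the square root of F. Deviations used log2 of CPM plus 0.05. No replicate pair agreed within sampling noise (chi-square divided by df 12.0 to 144).

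Members and lists were chosen with earlier results of these data known. Named members are the 10 highest, those with the smallest p in each contrast, X-linked members, paralogs and parents, stalk and 5S particle members, Rpsa, Rps6, Rps27a and the most and least variable; Rpl24, Rpl19, Rpl41 and the genes of other lists beyond the 3 smallest p-values were named after their values were seen.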

Additional observations from a re-analysis of the deposited data

Results flagged for a closer look

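Among 90 sets of member and summary values examined for a library far from the others of its genotype, 5 were found, and chance alone finds about 1 in 20 such sets. KO female 3 lay far above the other KO libraries for Rpl35 (185.5 CPM), Rpl5 (486.2 CPM), Rpl7 (484.9 CPM) and Rps14 (521.9 CPM). WT female 2 lay far above the other WT libraries for Rpl36a (138.3 CPM).

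For 3 members every KO library lay on one side of WT in males and on the opposite side in females, which is a matter of order and was not a test. The fitted differences between the sexes were 0.3223 for Rpl10, 0.4103 for Rpl37a and 0.3726 for Rps14 on the log2 scale; none passed the threshold in the interaction test of edgeR.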

How the results depend on the processing

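Entries past the threshold over both sexes, in males, in females, in the interaction and between sexes numbered 525, 2116, 6, 224 and 2807 with DESeq2, which called 17 members between sexes. limma-voom gave 3117 over both sexes, 4584 in males, 0 in females and 5899 between sexes, with 1 member in males and 20 between sexes. Without the filter they numbered 3 over both sexes, 1079 in males and 2 in the interaction. In males they numbered 284 with RLE scaling (DESeq2's size factors in edgeR), 4 with total counts and 0 without WT female 2 and WT male 1, which left 1 in the interaction; total counts gave 0 in females, and genes only gave 576 between sexes. Members past the threshold between sexes numbered 0 with RLE scaling, total counts or no filter. As a share of gene counts the KO mean was 3.11%.

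The replicate numbers did not pair the samples: same-numbered deviations correlated from -0.13 to 0.08. With the replicate block 0 entries passed over both sexes, 0 in males and 0 in females, Cgas had an adjusted p of 0.0711 in edgeR, and Rpl7l1 turned to 0.011.

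Leaving out each library gave 1 to 1624 entries over both sexes, 0 to 2065 in males, 0 to 3709 in females, 0 to 2435 in the interaction and 92 to 3336 between sexes. Each highest count came without WT female 1. Members past the threshold numbered 0 to 38 in females, 0 to 13 in the interaction and 0 to 6 between sexes. The ratio differences ran from -0.18 to 0.28 (Rpl22l1) and -0.15 to 0.23 (Rps27l), lowest without WT female 2, and were -0.20 and -0.32 in males only.

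Member differences over both sexes were positive for 1 of 87 in edgeR, 23 with limma-voom and 31 without WT female 2 and WT male 1, and none was past the threshold there; the cause was not tested. The values that follow are those of the named members that changed sign. With limma-voom they were 0.034 for Rpl10, 0.29 for Rpl32l, 0.090 for Rpl37a, 1.46 for Rpl39l, 0.19 for Rpl6l, 0.0043 for Rplp1, 0.028 for Rplp2, 0.015 for Rps14, 0.0035 for Rps27, 0.071 for Rps28, 0.12 for Rps3a3, 0.58 for Rps4l and 0.0073 for Rps4x. Without WT female 2 and WT male 1 they were 0.011 for Rpl10, 0.022 for Rpl22, 0.098 for Rpl32l, 0.016 for Rpl36a, 0.068 for Rpl37a, 0.56 for Rpl39l, 0.034 for Rplp2, 0.018 for Rps27, 0.075 for Rps28 and 0.10 for Rps4l. Rpl7l1 was 0.00076 without the filter and Rps28 0.00066 without the sex term. Leaving out each library gave -0.095 to 0.0070 for Rpl10, -0.15 to 0.035 for Rpl22, -0.16 to 0.026 for Rpl32l, -0.060 to 0.062 for Rpl37a, -1.53 to 0.018 for Rpl39l, -0.16 to 0.074 for Rpl7l1, -0.071 to 0.015 for Rplp2, -0.16 to 0.022 for Rps27, -0.054 to 0.073 for Rps28, -0.022 to 0.092 for Rps29 and -0.23 to 0.21 for Rps4l. Depth limits only the scarce copies, such as Rpl39l and Rps12l1.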
